A study of Mus musculus with 5 samples.

Results

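The phagocyte NADPH oxidase is described here by the mRNA levels of 7 genes, Cybb, Cyba, Ncf1, Ncf4, Rac1, Rac2 and Hvcn1, taken by their symbols from the 23234 gene symbols listed for each of 5 RNA-seq libraries of sorted mouse bone marrow (BM) cells. All 7 were found and none was listed at 0 in any library. Cells came from C57BL/6 mice aged 7 weeks, all heterozygous for the reporter allele Ym1Venus (+/Ym1Venus), with Venus fluorescence as the mark of expression of the chitinase-like protein Ym1. There was 1 library each of Ly6C+CD115+ monocytes sorted as Venus+ (Ym1+Ly6Chi monocytes) or Venus- (Ym1-Ly6Chi monocytes) 48 h after intravenous LPS (lipopolysaccharide) at 100 µg per mouse, of Ly6G+ neutrophils at the same time after LPS, and of Venus- Ly6C+CD115+ monocytes (naïve monocytes) and Ly6G+ neutrophils (naïve neutrophils) from untreated mice. With 1 library per condition there is no replicate error and no test, and every difference below describes a pair of libraries.

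The oxidase moves electrons from NADPH in the cytosol to oxygen on the other side of the membrane, which makes superoxide in phagosomes and outside the cell. Its core is a membrane heterodimer, cytochrome b558, which is silent until a complex of cytosolic subunits and a Rac GTPase docks on it after the cell is stimulated. Neutrophils are known for a strong oxidative burst, and inherited loss of the core or cytosolic subunits causes chronic granulomatous disease, in which phagocytes kill ingested microbes poorly.

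Cybb encodes gp91phox (NOX2), the subunit that carries the electrons, and Cyba encodes p22phox, which stabilises it and gives the cytosolic subunits their docking site. Ncf1 encodes p47phox, the organiser that binds p22phox once it is phosphorylated, and Ncf4 encodes p40phox, which binds a phosphoinositide of the phagosome. Rac2 and Rac1 encode closely related small GTPases that switch the assembled enzyme on, Rac2 being restricted to blood cells and Rac1 being widely expressed. Hvcn1 encodes the voltage-gated proton channel that carries out the protons the enzyme leaves behind. Values are FPKM, fragment numbers scaled to transcript length and to the depth of the library. Comparison between libraries also depends on their composition, since the FPKM of a library sum to 536819 to 775532 here.

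The sequences upstream of the core and organiser genes are shown because windows were at hand for these genes, not because of their levels. RefSeq promoter windows, from 250 bases before to 50 bases after the annotated start on the GRCm38.p6 assembly, were at hand for 3 of the 7 genes. All 3 genes lie on the minus strand and are printed 5′ to 3′ along the gene, with motif matches in capitals and positions counted from the start, the base before it being -1. The windows are chrX:9469275-9469574 for Cybb, chr8:122432891-122433190 for Cyba and chr5:134229576-134229875 for Ncf1, and the values of the libraries were made on another build, mm9.
Cybb: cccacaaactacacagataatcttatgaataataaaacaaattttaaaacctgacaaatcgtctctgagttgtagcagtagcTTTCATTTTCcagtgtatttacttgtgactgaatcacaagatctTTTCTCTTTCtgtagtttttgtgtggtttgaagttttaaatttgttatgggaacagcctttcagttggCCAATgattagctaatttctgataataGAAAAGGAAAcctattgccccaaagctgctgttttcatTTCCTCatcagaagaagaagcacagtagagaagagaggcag
Cyba: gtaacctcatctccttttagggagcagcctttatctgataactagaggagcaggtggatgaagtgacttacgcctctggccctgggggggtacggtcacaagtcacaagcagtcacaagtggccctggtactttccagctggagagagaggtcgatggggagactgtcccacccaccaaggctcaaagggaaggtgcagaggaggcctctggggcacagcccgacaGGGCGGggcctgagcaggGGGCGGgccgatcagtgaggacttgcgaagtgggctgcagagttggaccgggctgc
Ncf1: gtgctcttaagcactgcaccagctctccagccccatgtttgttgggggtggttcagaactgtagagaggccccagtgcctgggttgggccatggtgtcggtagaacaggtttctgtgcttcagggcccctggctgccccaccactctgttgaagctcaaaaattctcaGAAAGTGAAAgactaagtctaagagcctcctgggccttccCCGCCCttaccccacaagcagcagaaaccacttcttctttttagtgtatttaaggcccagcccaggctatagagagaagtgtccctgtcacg
The motifs searched on both strands were the PU.1 core GAGGAA, an interferon response-like direct repeat of GAAA spaced by 2 bases, the C/EBP motif TTGCNNAA, the box CCAAT, the TATA box (TATAAA) and the GC box GGGCGG, and no 2 matches in these windows overlap. The Cybb window holds 3 matches to the GAAA repeat, the PU.1 core on the antisense strand from base 10 after the start, and CCAAT from base -56. The Cyba window holds 2 GC boxes, from bases -24 and -6. The Ncf1 window holds 1 match to the GAAA repeat, from base -82, and 1 GC box on the antisense strand. Of 32544 RefSeq promoter windows of this length, 3.45% hold the GAAA repeat, 28.1% the PU.1 core, 37.4% the CCAAT box, 35.9% the GC box, 10.8% the C/EBP motif and 13.6% the TATA box. GC content is 35.3% for Cybb, 60.7% for Cyba and 54.0% for Ncf1, against a median of 53% over all windows. A match is a description of the letters and shows no binding.

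The marker genes went with the labels. The 6 monocyte markers summed to 4455 to 5194 FPKM in monocytes and 1416 to 1636 in neutrophils. Most of these sums was Ly6c2, with 3029 to 3245 FPKM in monocytes and 1377 to 1613 in neutrophils. In neutrophils Csf1r had at most 33.9 FPKM, F13a1 at most 10.7, and Ccr2, Klf4 and Irf8 at most 1.13. The 9 neutrophil markers found of 10 (Ly6g was not among the symbols) summed to 280007 and 291386 in neutrophils and to 1258 to 14041 in monocytes. B cell, T and NK cell, erythroid, platelet, eosinophil and macrophage lists summed to at most 116 FPKM in any library. The sources used here give no read numbers, and the steps between low FPKM values place the libraries at roughly 4290000 to 9480000 fragments, lowest for Ym1- monocytes. The 95% Poisson intervals given below rest on this rough estimate and cover counting error only. They also rest on the median length of the annotated transcripts, for Cybb 792 bases where the longest coding transcript has 4752. A longer length would give more fragments and narrower intervals, so overlaps between intervals depend on that choice. S100a8 and S100a9 alone took 27.7% and 30.0% of the FPKM of the neutrophil libraries and 0.172% to 2.39% in monocytes, and their part in the level of the other genes was not tested, so lineage differences are also given under median-of-ratios scaling. In these bulk libraries fewer cells of a type and less RNA per cell cannot be told apart.

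Of the 7 oxidase mRNAs, 6 had their highest levels in neutrophils, and all but Hvcn1 had at least 150.7 FPKM in every library. In the monocyte libraries the 7 genes together made up 0.304% to 0.369% of all FPKM, and in neutrophils 0.590% after LPS and 0.627% without it. Cyba had the highest FPKM of the members in all 3 monocyte libraries and Ncf1 in both neutrophil libraries. Hvcn1 had the lowest FPKM in all 5.

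**Figure D1:**
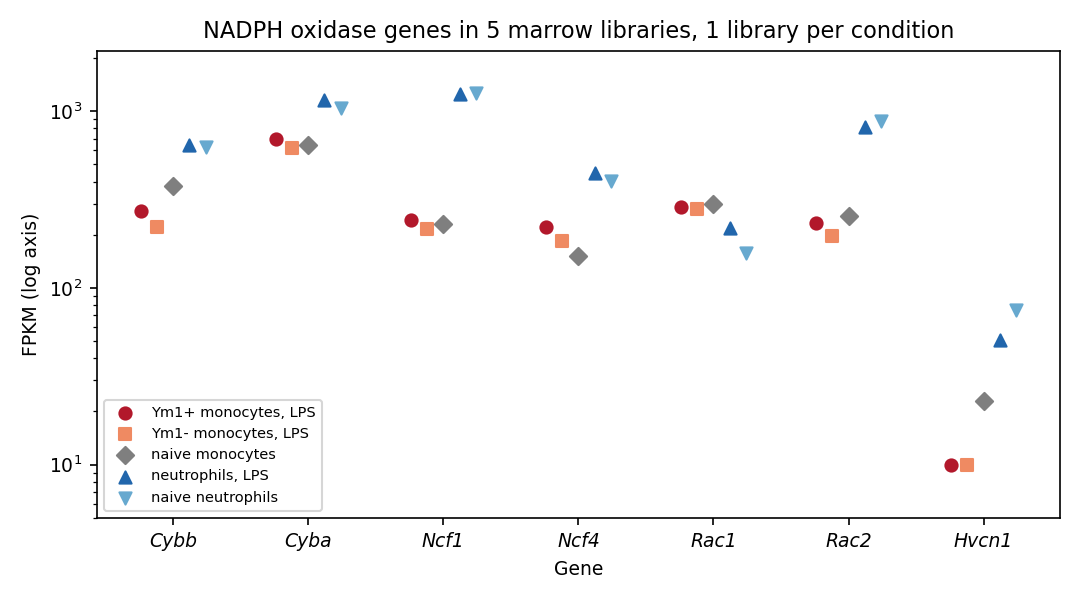
FPKM of the 7 oxidase genes (log axis) in each of the 5 libraries, 1 point per library and no error bars. The 2 neutrophil libraries lie above the 3 monocyte libraries for every gene but Rac1.

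For the core of the enzyme, Cybb had 271 FPKM in Ym1+ monocytes, 219.97 in Ym1- monocytes, 379 in naïve monocytes, 647 in neutrophils after LPS and 632 in naïve neutrophils. Cyba had 695, 618, 645, 1154 and 1044 FPKM in the same order. Both genes were higher in both neutrophil libraries than in any monocyte library. They differed in the monocytes, where Cybb ranged 1.72-fold between libraries and Cyba 1.13-fold. The counting intervals of the 2 neutrophil libraries overlapped for Cybb, as did those of Ym1- and naïve monocytes for Cyba.

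The cytosolic subunits differed from each other in the gap between the lineages, which was wider for Ncf1 than for Ncf4. Ncf1 had 242, 217 and 230.3 FPKM in Ym1+, Ym1- and naïve monocytes and 1245 and 1264 in neutrophils after LPS and naïve neutrophils. Ncf4 had 220.5, 184 and 151 FPKM in these monocytes and 446 and 405 in these neutrophils. Ncf1 was thus flat within each lineage, by 1.12-fold over the monocytes and 1.02-fold over the neutrophils, whereas Ncf4 ranged 1.46-fold over the monocytes and was lowest in the naïve library. For Ncf4 no 2 neighbouring libraries had overlapping counting intervals, and for Ncf1 neighbours overlapped within each lineage.

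The GTPases differed between the lineages in opposite directions on the FPKM scale, which for Rac1 was lost under median-of-ratios scaling. Rac2 had 234 FPKM in Ym1+ monocytes, 197 in Ym1- monocytes, 254 in naïve monocytes, 812 in neutrophils after LPS and 883 in naïve neutrophils. Rac1 had 285, 281, 297, 217 and 157 FPKM in the same order. In FPKM Rac1 was lower in both neutrophil libraries than in the monocytes, where its 3 counting intervals overlapped, whereas median-of-ratios scaling placed naïve neutrophils at 218 and neutrophils after LPS at 301, on either side of the monocytes at 221 to 234. Rac1 and Rac2 share no 50-base window of their transcripts in the GENCODE M21 annotation, and their longest identical run is 29 bases.

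Hvcn1 had 9.96 FPKM in Ym1+ monocytes, 9.91 in Ym1- monocytes, 22.8 in naïve monocytes, 50.9 in neutrophils after LPS and 75.5 in naïve neutrophils. Its range of 7.62-fold from lowest to highest was the widest of the members, and its naïve library was the higher one in each lineage. It is also the least precisely measured member, with a 95% counting interval of 7.17 to 13.3 FPKM in Ym1- monocytes.

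Among the genes that reached 1 FPKM in some library, 17.3% lay higher in both neutrophil libraries than in all 3 monocyte libraries and 59.5% lay lower, against 6 and 1 of the 7 oxidase genes. Under median-of-ratios scaling these shares were 35.3% and 36.1%, the same 6 genes lay higher and Rac1 overlapped.

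Neutrophils had more oxidase mRNA than monocytes in the untreated mice, relative to their other genes. Of the 7 genes, 4 (Ncf1, Rac2, Hvcn1 and Ncf4) lay at least 2-fold above naïve monocytes in naïve neutrophils and 0 were 2-fold below, where 10.8% of the 10944 genes compared were 2-fold higher and 42.7% lower. Differences are of log2(FPKM + 1), which understates the change of low genes. They were 2.45 for Ncf1, 1.79 for Rac2, 1.68 for Hvcn1 and 1.42 for Ncf4, while Cybb had 0.73, Cyba 0.69 and Rac1 -0.91. The median was 1.42 over the members and -0.79 over all genes.

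Relative to that median every member except Rac1 lay higher, Cyba by 1.48 and Ncf1 by 3.24. The ratio of FPKM was 5.49 for Ncf1 (95% counting interval 5.24 to 5.75) and 1.67 for Cybb (1.58 to 1.76), so that organiser and core did not differ between lineages to the same degree. Median-of-ratios scaling moved the median over all genes to -0.03 and the differences to 3.29 for Ncf1, 1.58 for Cybb, 1.54 for Cyba and -0.07 for Rac1, and 6 members were then 2-fold higher. Over all genes, 2428 of 10902 were then 2-fold higher and 2634 lower. With that scaling 48.0% of the genes at least 2-fold apart were higher in neutrophils, against 20.2% in FPKM. In TPM the differences of the core genes shrank to 0.33 for Cybb and 0.29 for Cyba. Rac1 had -1.32 in TPM and was then 2-fold lower, beside the same 4 higher members, where 964 of 11514 genes were higher and 6327 lower.

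**Figure D2:**
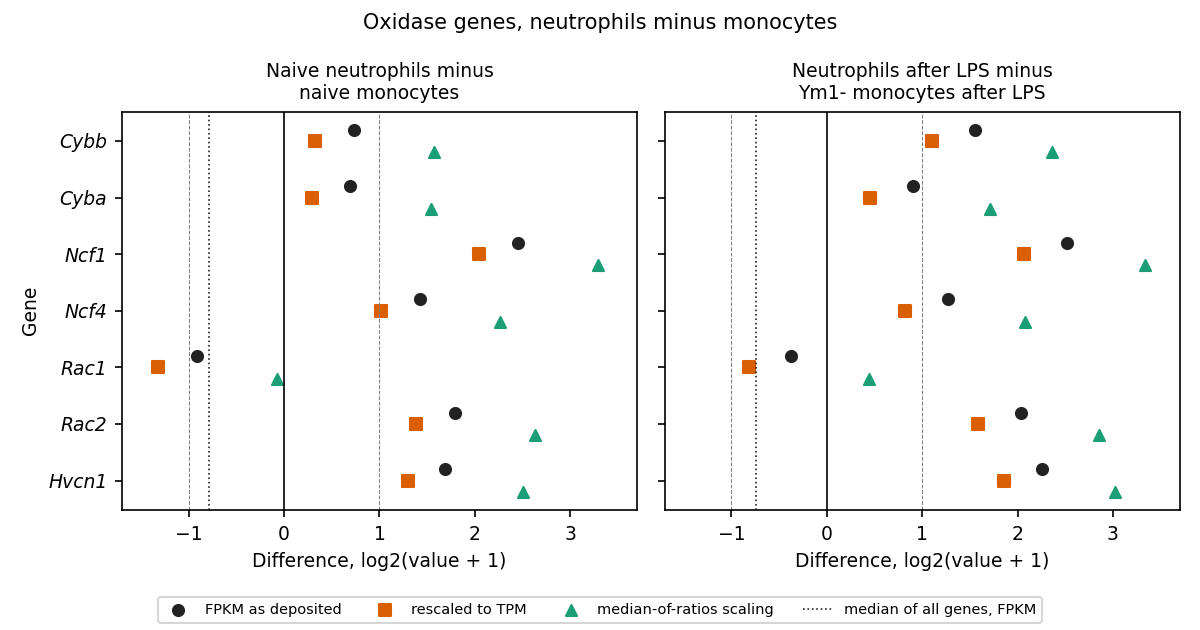
Difference between neutrophils and monocytes on the log2(value + 1) scale for the 7 genes, in naïve mice (left) and after LPS against Ym1- monocytes (right), as FPKM, TPM and median-of-ratios scaled values, with 1 library per condition. Dashed lines mark 2-fold and the dotted line the median of all genes in FPKM. Ncf1 lies beyond 2 under the 3 scalings in both panels, and Rac1 lies below 0 on the left and on either side of 0 on the right.

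The lineage difference was present after LPS as well. Neutrophils after LPS had 5 members at least 2-fold above Ym1- monocytes and 0 below, where 11.0% of all genes were higher and 40.8% lower. Hvcn1, at 2.25, and Ncf1, at 2.52, had the largest differences, followed by Rac2 at 2.04, Cybb at 1.55 and Ncf4 at 1.27. Cyba had 0.90, and Rac1 had -0.37 in FPKM but 0.44 under median-of-ratios scaling. Cybb passed 2-fold here and not in the untreated mice, its ratio being 2.94 (2.72 to 3.18) after LPS and 1.67 without it, and the difference between these ratios was not tested. In TPM 4 members were 2-fold higher, Ncf4 having 0.82 and Cyba 0.45, where 921 of 11218 genes were higher and 6150 lower. Of the genes at least 2-fold apart, 21.2% were higher in neutrophils in FPKM and 50.9% under median-of-ratios scaling.

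Against Ym1+ monocytes, 5 members were again at least 2-fold higher in neutrophils after LPS and 0 lower, where 9.53% of all genes were higher and 36.4% lower. The differences were 2.36 for Ncf1, 2.24 for Hvcn1, 1.79 for Rac2, 1.25 for Cybb, 1.01 for Ncf4 and 0.73 for Cyba. Rac1 had -0.39, or 0.36 under median-of-ratios scaling. Both comparisons use the same neutrophil library. On the TPM scale 3 members, rather than 5, were 2-fold above the Ym1+ cells, since Cybb and Ncf4 fell short at 0.76 and 0.52. Cyba had 0.24 in TPM. With scaling that leaves out S100a8 and S100a9 the count was 4, Ncf4 having 0.96. Of all genes, 731 of 11082 were higher in TPM and 1065 of 11171 without S100a8 and S100a9. The share of higher genes among those 2-fold apart went from 20.8% in FPKM to 51.7% under median-of-ratios scaling.

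The ratio of one member to another within a library does not depend on how libraries are scaled, and showed how the mRNA makeup of the enzyme differed. Its size depends on the transcript lengths behind the FPKM, which the sources used here do not give. The change of a ratio between libraries is therefore firmer than whether it lies above or below 1. Rac2 mRNA was 0.821, 0.702 and 0.857 times that of Rac1 in Ym1+, Ym1- and naïve monocytes, and 3.74 and 5.61 times in neutrophils after LPS and naïve neutrophils. In FPKM, Rac1 was thus slightly above Rac2 in monocytes, and Rac2 was several times above Rac1 in neutrophils. Ncf1 mRNA was 0.349 to 0.357 times that of Cyba in the 3 monocyte libraries and 1.08 and 1.21 times in the neutrophils. The 3 monocyte libraries were nearly equal in this ratio.

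Other ratios separated the libraries differently. Cyba mRNA was 2.57 and 2.81 times that of Cybb in Ym1+ and Ym1- monocytes, against 1.70 in naïve monocytes and 1.79 and 1.65 in the neutrophils. For this ratio the naïve monocytes lay with the neutrophils and the monocytes after LPS stood apart. The ratio of Ncf1 to Cybb was 0.895, 0.984 and 0.607 in these monocytes and 1.93 and 2.0 in the neutrophils. The ratio of Ncf1 to Ncf4 was 1.10, 1.17 and 1.53 in the monocytes and 2.79 and 3.12 in the neutrophils, so Ncf1 had the higher FPKM in every library. Hvcn1 mRNA was 0.0367, 0.0450 and 0.0602 times that of Cybb in the monocytes and 0.0788 and 0.120 times in the neutrophils.

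**Figure D3:**
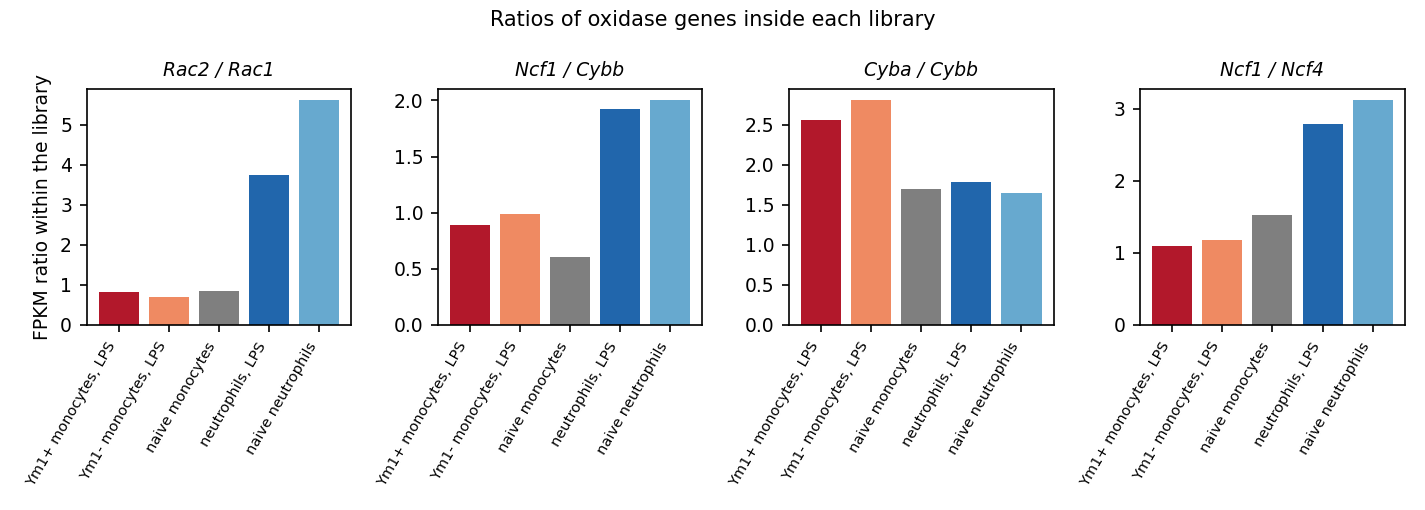
Ratio of the FPKM of Rac2 to Rac1, Ncf1 to Cybb, Cyba to Cybb and Ncf1 to Ncf4 within each of the 5 libraries, 1 bar per library, with no error bars. The ratio of Rac2 to Rac1 is below 1 in the 3 monocyte libraries and above 3 in the 2 neutrophil libraries.

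In monocytes 48 h after LPS Cyba, Ncf1 and Rac1 were near their naïve level and Hvcn1 was lower. To a lesser degree Cybb was lower and Ncf4 higher in both gates, and Rac2 was lower in Ym1- monocytes. Between Ym1- and naïve monocytes, which share the Venus- gate, 1 member (Hvcn1) was at least 2-fold lower and 0 higher, where 4.72% of all genes were lower and 2.86% higher. The Hvcn1 ratio was 0.434 (95% counting interval 0.301 to 0.615), a difference of -1.13. Cybb came next with -0.78 and a ratio of 0.580 (0.532 to 0.632), and 7.94% of all genes compared had a lower difference.

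The remaining members moved less in this comparison. Rac2 had -0.36, Ncf1 -0.09, Rac1 -0.08 and Cyba -0.06, and Ncf4 alone was above the naïve level, at 0.29. The counting intervals of the ratios included 1 for Cyba, Ncf1 and Rac1. Eosinophil markers summed to 29.3 FPKM in Ym1- monocytes and 0.240 in naïve monocytes (both list genes, Prg2 and Epx, were higher), macrophage markers to 59.2 and 46.6 (3 of 4 compared were higher), and neutrophil markers to 1950 and 1258 (4 of 9 were 2-fold lower). Erythroid markers summed to 2.09 and 19.6 and platelet markers to 0.620 and 11.3 (2 of 2 compared were lower in each). Their part in these differences was not tested.

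Ym1+ monocytes after LPS were also compared with the same naïve library, and here both the treatment and the Venus gate change. Again Hvcn1 was the 1 member at least 2-fold lower and 0 were higher, where 4.51% of all genes were lower and 2.59% higher. Its difference was -1.12 with a ratio of 0.436 (0.332 to 0.571), and Cybb had -0.48 with a ratio of 0.715 (0.670 to 0.762). Ncf4 was above the naïve level, with 0.55 and a ratio of 1.46 (1.33 to 1.61). Cyba had 0.11, Ncf1 0.07 and Rac2 -0.12, and Rac1 had -0.06, which became 0.03 under median-of-ratios scaling. Neutrophil markers summed to 14041 FPKM in the Ym1+ library and 1258 in the naïve one, 7 of 9 being 2-fold higher, and macrophage markers to 116 and 46.6, with 4 of 5 higher. Their part was not tested.

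Neutrophils had nearly the same oxidase mRNA with and without LPS, apart from Rac1 and Hvcn1. None of the 7 genes, 0 in either direction, was 2-fold apart, where 8.96% of all genes were 2-fold higher after LPS and 5.35% lower. Of the genes 2-fold apart 62.6% were higher after LPS in FPKM, 51.1% in TPM and 46.1% with scaling that leaves out S100a8 and S100a9. Rac1 had the largest increase of the members, 0.46 with a ratio of 1.38 (1.30 to 1.46). Hvcn1 had their largest decrease, -0.56 with a ratio of 0.675 (0.595 to 0.764). Many other genes moved as far, since 74.2% of all genes compared had a lower difference than Rac1 and 15.5% a lower one than Hvcn1. Rac2 had -0.12. Ncf1 had -0.02, Cyba 0.15, Ncf4 0.14 and Cybb 0.03, of which Cyba, Ncf4 and Cybb take either sign depending on the scaling. The ratio of Rac2 to Rac1 was 3.74 after LPS and 5.61 without. Platelet markers summed to 1.97 FPKM after LPS and 47.3 without (3 of 3 lower), erythroid markers to 7.2 and 25.3 (2 of 2 lower) and macrophage markers to 15.2 and 30.1 (4 of 5 lower), and their part was not tested.

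**Figure D4:**
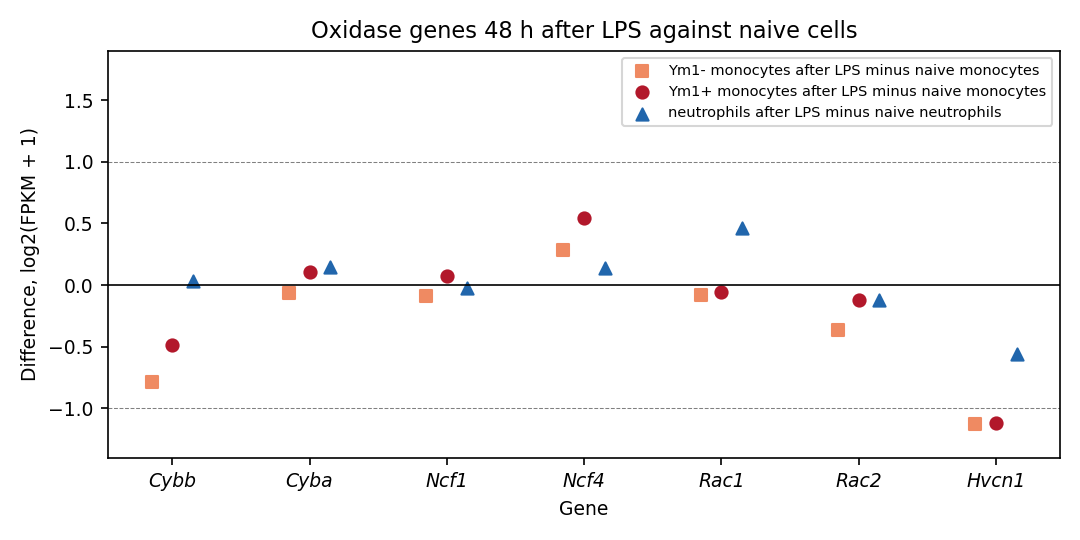
Difference between libraries after LPS and naïve libraries on the log2(FPKM + 1) scale for the 7 genes, with 1 library per condition. Hvcn1 is below 0 in all 3 comparisons and Rac1 is above 0.4 in the neutrophils.

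Ym1+ and Ym1- monocytes after LPS had similar oxidase mRNA. No member was 2-fold apart (0 of 7), where 1.38% of all genes were 2-fold higher in Ym1+ monocytes and 1.18% lower. All 7 differences were above 0, from 0.01 for Hvcn1 and 0.02 for Rac1 to 0.25 for Rac2, 0.26 for Ncf4 and 0.30 for Cybb, and the median over all genes was -0.06. The Cybb ratio was 1.23 (1.13 to 1.34), whereas the intervals for Rac1 and Hvcn1 included 1. Beside this, the neutrophil markers summed to 14041 FPKM in Ym1+ and 1950 in Ym1- monocytes, with 7 of 9 at least 2-fold higher, but Retnlg had 13.7 and 10.6. Macrophage markers summed to 116 and 59.2, 4 of 5 being higher, erythroid markers to 17.2 and 2.09, and both eosinophil genes were listed at 0 in the Ym1+ library. Their part in the small differences was not tested.

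Partners of the enzyme in maturation and ion transport were taken from a fixed list. Of the 4 list genes compared, 0 were 2-fold higher in naïve neutrophils than naïve monocytes and 2 were lower. These are Nrros (listed as Lrrc33), which encodes a membrane protein reported to lower NOX2, with 22.1 against 80.0 FPKM, and the chloride/proton exchanger gene Clcn3 with 2.51 against 6.26. Of all genes, 10.8% were higher and 42.7% lower in this pair of libraries. Under median-of-ratios scaling 1 of the 4 was higher and 0 lower, where 2428 of 10902 genes were higher and 2634 lower. These shares apply to the naïve lineage counts of the lists below as well. In the LPS comparisons within a lineage 0 of the 4 were 2-fold apart, where 2.59% to 8.96% of all genes were higher and 4.51% to 5.35% lower.

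Of 11 regulators of the Rac switch, 2 were at least 2-fold higher in naïve neutrophils and 4 lower, or 4 and 1 under median-of-ratios scaling, where 10.8% of all genes were higher and 42.7% lower in FPKM. Arhgdib, which encodes a RhoGDI that holds Rac in the cytosol, had 3515 against 1307 FPKM, and Arhgap25, a Rac GTPase-activating protein of phagocytes, had 101 against 24.7. The exchange factor gene Vav2 was lower, at 0.0599 against 7.79. In monocytes, Arhgap25 and Vav3 were 2-fold lower in the Ym1- library than in the naïve library and Vav2 in the Ym1+ library, against 4.72% and 4.51% of all genes. In neutrophils 0 of 10 genes compared passed 2-fold after LPS, where 8.96% of all genes were higher and 5.35% lower.

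Among kinases and lipid enzymes that act on the cytosolic subunits, 1 of 12 genes compared was 2-fold higher in naïve neutrophils and 0 lower, or 6 and 0 under median-of-ratios scaling. The gene was Prkcb, which encodes a protein kinase C that phosphorylates p47phox, at 59.2 against 22.1 FPKM. Of all genes, 10.8% were higher and 42.7% lower in FPKM. None of the 12 was 2-fold apart in any LPS comparison within a lineage (0 of 12), where 2.59% to 8.96% of all genes were higher and 4.51% to 5.35% lower. No other NADPH oxidase was seen at an appreciable level. Of 9 genes of NOX1, NOX3, NOX4, the dual oxidases and their partners, 7 were listed at 0 in all 5 libraries, and the highest value was 0.525 FPKM for Noxo1, so 0 of 9 entered the comparisons.

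Of 8 genes compared from the list on NADPH supply, 3 of the pentose phosphate pathway (Pgd, Tkt and Taldo1) were 2-fold higher in naïve neutrophils and 3 were lower, the isocitrate dehydrogenase genes Idh1 and Idh2 and Me2, which encodes a mitochondrial malic enzyme that mainly uses NAD, or 5 and 2 under median-of-ratios scaling. Of all genes, 10.8% were higher and 42.7% lower in FPKM. Pgd had 793 FPKM in naïve neutrophils and 291 in naïve monocytes, and Idh2 had 1.97 and 75.4. After LPS, 3 of 8 genes were 2-fold higher in neutrophils and 0 lower, against 8.96% and 5.35% of all genes. The 3 were Idh2, Me2 and G6pdx, which encodes the first enzyme of the pentose phosphate pathway and had 1199 FPKM after LPS and 368 without it. In the same pair of libraries 0 of the 7 oxidase genes were 2-fold apart. In monocytes after LPS 0 of 8 were 2-fold apart from the naïve library, in either gate. Of all genes, 2.86% were higher and 4.72% lower in the Ym1- library, and 2.59% and 4.51% in the Ym1+ library.

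Of 20 genes compared that handle superoxide and peroxide, 4 were 2-fold higher in naïve neutrophils and 11 lower, or 6 and 9 under median-of-ratios scaling, where 10.8% of all genes were higher and 42.7% lower in FPKM. The lower genes include Sod1, the cytosolic superoxide dismutase, with 61.0 against 848 FPKM, Prdx1 with 9.31 against 217 and Prdx4 with 0.637 against 70.0, whereas the peroxiredoxin gene Prdx5 was higher, with 2200.4 against 882. In neutrophils after LPS 7 of 20 were 2-fold higher and 0 lower, against 8.96% and 5.35% of all genes. Among the 7 were Prdx1 with 30.9 against 9.31 FPKM and Gclm, which encodes a subunit of the enzyme that starts glutathione synthesis, with 82.8 against 21.0. In monocytes 2 of 20 were higher in the Ym1- library than in the naïve one (Txnrd1 and Gclm) and 2 of 21 in the Ym1+ library (Gclm and Hmox1), against 2.86% and 2.59% of all genes. Mpo, the peroxidase that turns hydrogen peroxide into hypochlorous acid, was lower in both, at 385 and 282 against 910.3, and higher in neutrophils after LPS, at 119 against 9.77.

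**Figure D5:**
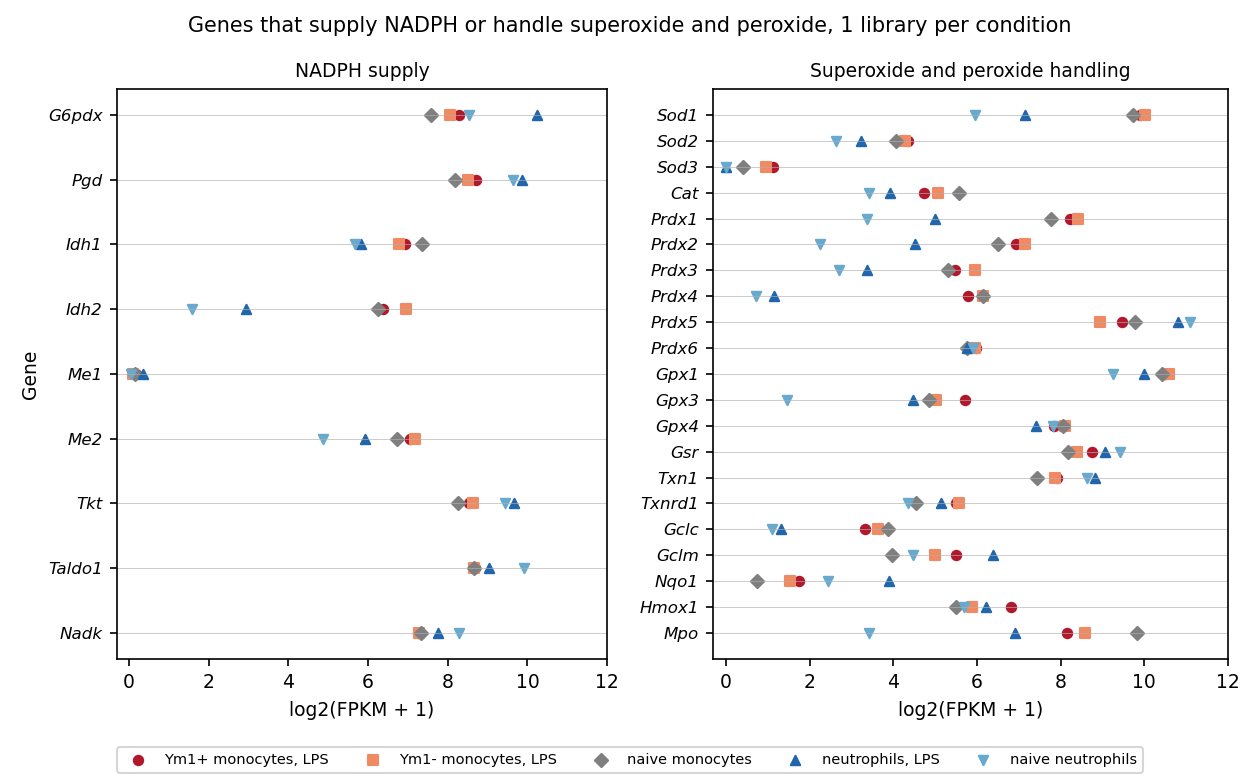
log2(FPKM + 1) of genes that supply NADPH (left) and genes that handle superoxide and peroxide (right), 1 point per library. G6pdx is highest in neutrophils after LPS, and Sod1 and most peroxiredoxin genes other than Prdx5 and Prdx6 are lower in both neutrophil libraries than in the monocytes.

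The same lists were counted between the lineages after LPS. Against Ym1- monocytes, neutrophils after LPS had 3 of 8 NADPH supply genes at least 2-fold higher and 2 lower, 3 of 20 superoxide and peroxide genes higher and 9 lower, and 2 of 11 Rac cycle genes higher and 2 lower. Against Ym1+ monocytes these counts were 3 and 3 of 8, 2 and 10 of 21, and 2 and 2 of 11. Of all genes, 11.0% were higher and 40.8% lower than in Ym1- monocytes and 9.53% and 36.4% than in Ym1+ monocytes. Of the 12 kinases and lipid enzymes 2 were higher than in Ym1- monocytes and 1 than in Ym1+ monocytes, with 0 lower in either. Median-of-ratios scaling gave 5 and 1 for NADPH supply, 6 and 6 for superoxide and peroxide, 5 and 1 for the Rac cycle and 6 and 0 for the kinases against Ym1- monocytes, and 5 and 1, 5 and 6, 2 and 1, and 5 and 0 against Ym1+ monocytes. Over all genes, 2344 of 10608 were then higher and 2263 lower than in Ym1- monocytes, and 2031 of 10498 higher and 1895 lower than in Ym1+ monocytes. Of the 4 partner genes, 0 were higher and 1 (Nrros) was lower in neutrophils in either comparison, or 0 were lower under median-of-ratios scaling. Between Ym1+ and Ym1- monocytes 0 genes of any of these lists were 2-fold apart, where 1.38% of all genes were higher and 1.18% lower.

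For each of the 7 members the closest profile belonged to a gene that is not a member. With 7 members among 7172 genes this was likely in advance, and it does not show that the members are unlike each other. Likeness was measured over the 5 libraries as the root mean square difference between centred log2(FPKM + 1) profiles, among 7172 genes, as a description only. Ncf4 was closest to Arhgdib (0.04) and Pgd (0.05), both described above, and Ncf1 to Prkd2 (0.04), a protein kinase D gene with 5.53 to 5.90 FPKM in monocytes and 35.5 to 36.2 in neutrophils. Cybb was closest to Nfam1 (0.05), which encodes an immune receptor with an activation motif, Cyba to Hcfc1r1 (0.02) and Rac1 to Rab18 (0.03), a GTPase of membrane traffic. Rac2 was closest to Rinl (0.06) and Hvcn1 to Plbd1 (0.08). Between members, Cyba and Cybb were the closest pair at 0.32, and Rac1 was at least 0.92 from every other member.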

How the data were processed

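BM cells were sorted and sequenced as 5 libraries, 1 per condition, and grouped by the sample labels. The values the authors deposited are FPKM, 1 per gene symbol and library. For the reads, the submitters' processing notes list the tools TopHat2 (2.0.8) and Cufflinks (2.1.1) with the mouse build mm9. The sources used here give neither options nor gene annotation, and the library kit was strand-specific per the labels. No count model was used.

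For 7 pairs of libraries, log2(FPKM + 1) was subtracted for genes reaching 1 FPKM in at least 1 of the pair, with a count of those 2-fold or more apart (Python 3.11.15, numpy 2.4.6, pandas 2.3.3, scipy 1.17.1, matplotlib 3.10.9). The steps were tested on simulated data. No test was possible. Alternatives were a pseudocount of 0.1, an FPKM minimum of 5 or none, TPM, median-of-ratios scaling over 11729 genes above 0 in all libraries, 1.5-fold and 4-fold thresholds and, chosen after seeing the data, scaling without S100a8 and S100a9.

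Depth was estimated from single-transcript genes of GENCODE M21, taking the most frequent product of low FPKM and length as 1 fragment. Intervals of 95% (Poisson, or Clopper-Pearson for ratios) use the median transcript length of the gene. This was 792 bases for Cybb, 459 for Rac2, 1010 for Hvcn1 and 718 for Ncf4, against 4752, 3038, 2805 and 1464 for the longest coding transcript. Of the 50-base windows of the longest transcripts, 7 of 2833 in Ncf1 and 15 of 2989 in Rac2 occur in other genes and 0 in the other members.

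The members and the 7 pathway lists and 8 marker lists were chosen with earlier results of these data known. Of 76 pathway genes 75 were measured, and older symbols in RefSeq served for 3 list genes (Sfpi1 for Spi1, Lrrc33 for Nrros and Emr1 for Adgre1), and Cybc1 and Ly6g were not analysed. One list gene is not reported here. Named genes were up to 3 genes per list and comparison with the largest difference of at least 2-fold and 10 FPKM in the higher library, and the 3 closest profiles per member, not all printed. Other list genes were named after their values were seen.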

Additional observations from a re-analysis of the deposited data

Results flagged for a closer look

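The difference between the libraries after LPS and the naïve libraries had opposite signs in monocytes (Ym1- minus naïve) and neutrophils for 3 of the 7 oxidase genes. The share of all genes with opposite signs was not counted, so this count describes the members and sets them apart from no other genes. It was -0.78 and 0.034 for Cybb, -0.061 and 0.15 for Cyba, and -0.078 and 0.46 for Rac1 on the log2(FPKM + 1) scale. Over the scalings tried, the difference in neutrophils ran from -0.135 to 0.034 for Cybb and from -0.024 to 0.15 for Cyba. Only Rac1 kept opposite signs under all of them. With 1 library per condition the difference between the lineages was not tested. By the median transcript length, the counting intervals of the ratios included 1 for Cybb in neutrophils and for Cyba and Rac1 in monocytes.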

How the results depend on the processing

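No paired analysis was possible because each condition has 1 library. Of 56 counts of members at least 2-fold apart under alternatives, 48 lay within 1.5 times the value reported. With a 1.5-fold threshold the count in naïve neutrophils against naïve monocytes went from 4 to 7 and that in Ym1- against naïve monocytes from 1 to 2. The 7 include Rac1, which was lower. Of all genes, 72.1% and 25.3% were 1.5-fold apart in these pairs. With a 4-fold threshold the counts became 1 for the naïve lineages, and 3 and 2 for neutrophils after LPS against Ym1- and Ym1+ monocytes. Of all genes, 20.68%, 17.73% and 12.96% were 4-fold apart in these 3 lineage comparisons. The 4-fold counts were 0 for Ym1- and for Ym1+ monocytes against naïve monocytes, where 0.93% and 1.44% of all genes were 4-fold apart. In TPM the count for neutrophils after LPS against Ym1+ monocytes went from 5 to 3. No single difference of a called member changed its direction, and 6 of the 49 member differences, all under 2-fold, took either sign over the scalings. What limits every value is the single library per condition, and counting error was largest for Hvcn1 in Ym1- monocytes, at about 43.0 fragments by the median transcript length.

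Over all genes, a 1.5-fold or 4-fold threshold often changed the count of genes apart by over 1.5 times. At 1.5-fold it went from 812 to 2709 (Ym1- against naïve monocytes), 760 to 2244 (Ym1+ against naïve monocytes), 1372 to 3355 (neutrophils with against without LPS) and 269 to 1077 (Ym1+ against Ym1-). At 4-fold these counts were 100, 154, 240 and 59, and the 3 lineage comparisons went from 5862 to 2263, from 5524 to 1893 and from 4830 to 1363. With a pseudocount of 0.1 the first 4 counts were 1295, 1221, 2071 and 561. The count for Ym1+ against Ym1- was also 167 at an FPKM minimum of 5, 425 in TPM and 432 with scaling that leaves out S100a8 and S100a9.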

Other observations

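Of 7 listed transcription factor genes tied to oxidase genes, 1 was at least 2-fold higher in naïve neutrophils (Cebpe, which encodes a late granulocyte factor, at 215 against 10.3 FPKM in naïve monocytes) and 1 lower (Irf8, which encodes a monocyte lineage factor, at 0.711 against 271), or 3 and 1 under median-of-ratios scaling, where 10.8% of all genes were higher and 42.7% lower in FPKM. Spi1 (listed as Sfpi1), which encodes PU.1, had 298, 300.2 and 293 FPKM in Ym1+, Ym1- and naïve monocytes and 563 and 505 in neutrophils after LPS and naïve neutrophils. After LPS, 0 of 7 were 2-fold apart in Ym1- monocytes and 0 of 6 in neutrophils, where 7.58% and 14.3% of all genes were. In Ym1+ monocytes Irf8 was 2-fold lower, at 127 against 271, where 4.51% of all genes were lower.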
